A study of Mus musculus with 9 samples.

Results

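The expression of 10 ETS family genes outside the ternary complex factor subfamily was followed in the mouse fibroblast line NIH 3T3. The genes are Ets1, Ets2, Fli1, Gabpa, Elf1, Elf2, Etv1, Etv4, Etv5 and Etv6, chosen by name, and each was read from the brightest of its probe sets that carries no other gene's name. All 10 were measured, among 19935 genes with such a probe set. Total RNA of cells that stably carried an shRNA against Net (NetKD), an shRNA against Sap-1 (SapKD) or the pLKO.1 control vector (Control) was measured on Affymetrix Mouse Gene 1.0 ST microarrays, 9 in all, with 3 biological replicates per group and 1 array each. The cells of all groups sat on fibronectin-coated plates for 2 hours, then overnight in medium lacking serum, and were lysed 1 hour after bovine serum was added, so no array shows the cells before serum. The serum concentration is unsettled, being 10% by the protocol of each sample and 20% by the text on the whole study. The labels do not say how many stable lines or shRNA sequences stand behind a group, so p-values may cover only the spread among cultures of 1 line.

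ETS factors share a DNA-binding domain, the ETS domain, which recognises a short purine-rich core, GGAA, and most of them are expressed in overlapping sets of cells. The ternary complex factors bind that core beside serum response factor and include Net, the product of Elk3, and Sap-1, the product of Elk4. The other members differ in their partners and inputs: Ets1 and Ets2 are activated by ERK phosphorylation, the PEA3 group of Etv1, Etv4 and Etv5 acts downstream of fibroblast growth factor receptors, Gabpa needs a beta subunit to activate transcription, and Etv6 is a repressor. Fli1 is best known from endothelial and blood cells and from the fusion protein of Ewing sarcoma.

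Values are log2 levels made by the authors with RMA, which removes background, brings the arrays to a common scale and combines the probes that make up each probe set. A level can be followed across arrays but not set against that of another gene, because probe sets differ in how brightly they report. A difference of 1 on this scale is 2-fold. Differences were tested with limma across all 19935 genes, with Benjamini-Hochberg adjustment, and a gene was taken to have risen or fallen at an adjusted p under 0.05. The arrays had medians of 7.47 to 7.54, and the correlation between arrays was 0.9981 to 0.9992 within groups and 0.9879 to 0.9947 across them. The fibroblast marker list had medians of 12.77 to 12.83 in NetKD, 12.64 to 12.70 in SapKD and 12.81 to 12.85 in Control arrays. The endothelial list had medians of 6.91 to 7.04 in NetKD, 6.79 to 6.93 in SapKD and 6.77 to 6.96 in Control arrays, with Pecam1 at 6.30 to 6.49 and Kdr at 6.08 to 6.23 over the 9 arrays but Flt1 at 9.64 to 9.72 in NetKD, 9.52 to 9.62 in SapKD and 9.28 to 9.37 in Control arrays. The haematopoietic list had medians of 6.80 to 6.90 in NetKD, 6.87 to 6.91 in SapKD and 6.90 to 6.93 in Control arrays, with Ptprc at 5.98 to 6.22. Of the targeted genes, Elk4 averaged 9.53 in SapKD and 11.07 in Control arrays, and Elk3 averaged 11.08 in NetKD and 11.51 in Control arrays. Elk4 was also lower in NetKD arrays, by a log2 difference of -0.44, so the NetKD arrays had lower levels of both genes.

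The promoter windows shown belong to Ets2, the only member that changed in opposite directions in the knockdowns, and to Etv1, the member with the largest fall in SapKD cells. Each runs from 250 bases before to 50 bases after an annotated start in RefSeq's GRCm38.p6 and is written 5′ to 3′ on the gene's strand, with every GGAA or its complement TTCC in capitals. The Ets2 window lies at chr16:95702157-95702456 on the plus strand and the Etv1 window, the first of a pair, at chr12:38779832-38780131 on the plus strand.
Ets2: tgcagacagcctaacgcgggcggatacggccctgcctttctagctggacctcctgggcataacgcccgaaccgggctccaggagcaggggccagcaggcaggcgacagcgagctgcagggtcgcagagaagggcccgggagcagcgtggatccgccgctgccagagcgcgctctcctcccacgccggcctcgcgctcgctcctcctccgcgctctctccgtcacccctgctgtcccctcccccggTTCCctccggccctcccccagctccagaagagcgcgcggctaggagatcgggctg
Etv1: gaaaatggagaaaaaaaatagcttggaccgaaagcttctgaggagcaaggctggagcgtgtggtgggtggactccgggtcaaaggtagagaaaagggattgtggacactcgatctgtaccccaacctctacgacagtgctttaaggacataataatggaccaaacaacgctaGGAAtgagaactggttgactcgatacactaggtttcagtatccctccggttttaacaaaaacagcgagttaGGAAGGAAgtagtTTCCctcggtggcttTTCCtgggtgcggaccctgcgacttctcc
The Ets2 window held 1 match to GGAA on either strand, the Etv1 window shown held 5 and the other Etv1 window held 1. Windows were found for 7 of the 10 members, 11 windows in all, and those of Ets1, Fli1 and Etv4 were not matched. A GGAA on either strand stood in 10 of the 11 windows, the exception being the first window of Etv5, and in 96.0% of all 32851 windows of the table, where the median was 3 matches. The longer ETS sequence CCGGAAGT, searched on both strands and holding GGAA within it, stood in none of the 11 and in 3.89% of all windows. The CArG box, the binding sequence of serum response factor, stood in none of the 11 and in 1.63% of all windows. These matches describe letters in 1 short window and say nothing of which factor binds there.

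In NetKD cells 4 of the 10 members rose and 2 fell relative to Control. Of all genes tested, 13.4% rose and 10.2% fell in that comparison, 23.6% in all. All 10 members had a mean over the arrays above the median of all probe sets, and among the 10767 such genes 22% rose and 16.9% fell, 38.9% in all. Fli1 met that cut of 7.52 only through its knockdown arrays, as its Control arrays stood at 7.44 to 7.51. For 8 of the 10 members no NetKD array lay within the Control range or the reverse, against 34.3% of all genes and 53.1% of the brighter ones. The median difference over the members was -0.08, with -0.00 over all genes. In SapKD cells 4 members rose and 3 fell, where 15.8% of all genes rose and 13.9% fell (29.7% in all), and 25.8% and 21.7% of the brighter genes (47.5% in all). Again 8 members did not overlap, against 41% of all genes and 62% of the brighter ones, and the median difference was 0.08, with -0.02 over all genes. Both comparisons share the 3 Control arrays. With 10 genes these counts are a description and set no member apart from other bright genes.

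**Figure D1:**
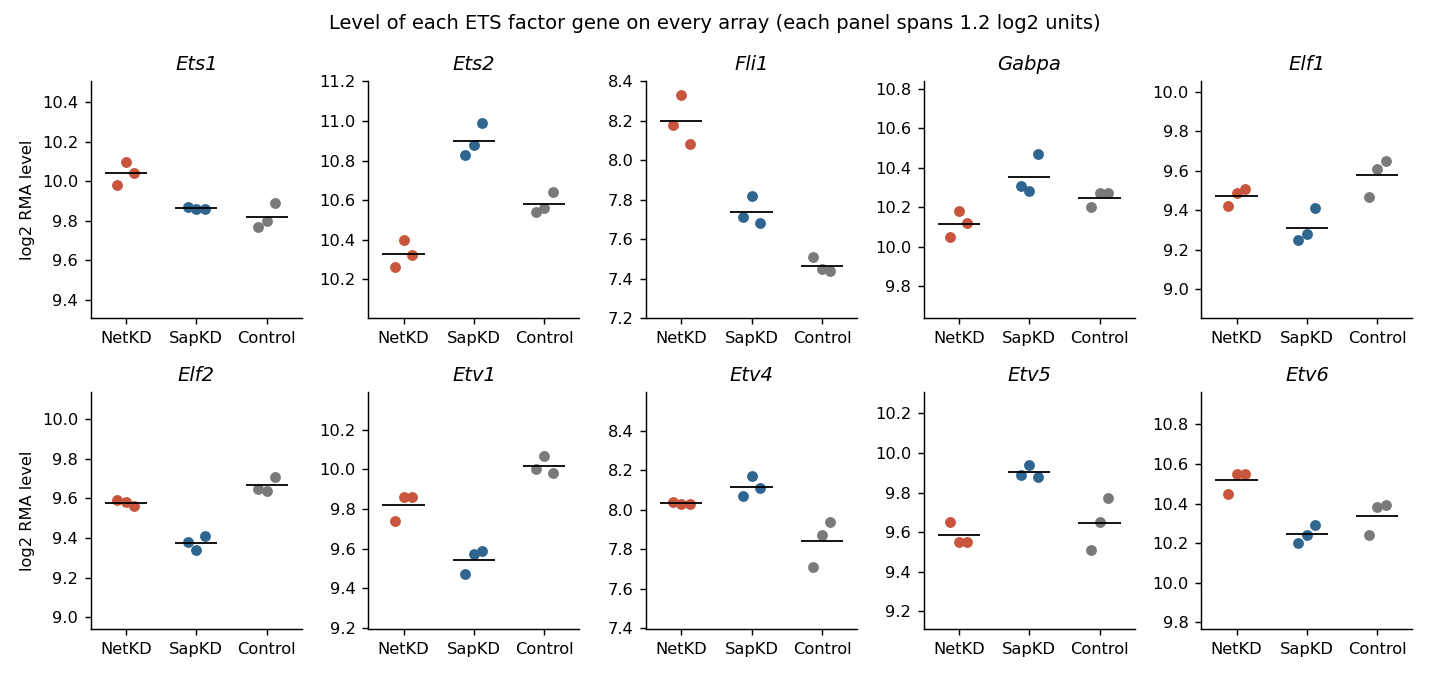
Log2 RMA level of each of the 10 ETS factor genes (vertical axis, every panel spanning 1.2 units) on the 3 NetKD, 3 SapKD and 3 Control arrays, 1 point per array, with the group mean as a line. Fli1 stands highest in NetKD and lowest in Control arrays, Ets2 is highest in SapKD and lowest in NetKD arrays, and Etv1 is lowest in SapKD arrays.

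Fli1, an ETS activator of endothelial and blood cell genes, showed the largest difference of the set in NetKD cells. Its level was 8.18, 8.33 and 8.08 on the NetKD arrays, 7.71, 7.82 and 7.68 on the SapKD arrays and 7.51, 7.45 and 7.44 on the Control arrays. The 3 groups did not overlap, and their order was NetKD above SapKD above Control. Fli1 rose by 0.73 in NetKD cells relative to Control (SE 0.06, limma adjusted p = 1.2e-05), a 1.66-fold difference that ranked 307 in size among all genes. It rose by 0.27 in SapKD cells (SE 0.06, limma adjusted p = 0.0067). The step between the knockdowns also passed, Fli1 being higher in NetKD than in SapKD cells by 0.46 (SE 0.06, limma adjusted p = 0.0002).

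Ets1, the founding member of the family and an ERK-regulated activator, is the gene next to Fli1 on chromosome 9. It stood at 9.98, 10.1 and 10.04 on the NetKD arrays, at 9.87, 9.86 and 9.86 on the SapKD arrays and at 9.77, 9.8 and 9.89 on the Control arrays. The NetKD arrays were above all others, while SapKD and Control arrays overlapped. Ets1 rose by 0.22 in NetKD cells (SE 0.05, limma adjusted p = 0.005), with a value of 0.04 in SapKD cells (95% interval -0.06 to 0.14, adjusted p = 0.57). It was higher in NetKD than in SapKD cells by 0.18 (adjusted p = 0.013), a call lost without NetKD replicate 2 (0.15, adjusted p = 0.053) and after median centring of the arrays (0.15, adjusted p = 0.059). Kirrel3, a cell adhesion gene on the other side of Ets1, fell in both lines, by 0.34 in NetKD and by 0.60 in SapKD cells (SE 0.05 each), and Kcnj1, the potassium channel gene on the other side of Fli1, lay at 0.00 in NetKD and -0.05 in SapKD cells. The higher levels of Fli1 and Ets1 in NetKD cells were not shared by the measured genes that flank the pair.

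Ets2, the close relative of Ets1, was the only member called in opposite directions in the knockdowns. Its level was 10.26, 10.4 and 10.32 on the NetKD arrays, 10.83, 10.88 and 10.99 on the SapKD arrays and 10.54, 10.56 and 10.64 on the Control arrays. No NetKD array reached the Control range, and every SapKD array lay above it. Ets2 fell by 0.25 in NetKD cells (SE 0.05, limma adjusted p = 0.0055) and rose by 0.32 in SapKD cells (SE 0.05, limma adjusted p = 0.00079). The direct comparison gave a NetKD minus SapKD difference of -0.57 (SE 0.05, limma adjusted p = 1.2e-05), a 1.49-fold gap and the largest of the set between the knockdowns. Ets1 and Ets2 thus stood in reverse order across the lines: Ets1 was higher in NetKD than in SapKD cells, and Ets2 lower. Of the genes beside Ets2, Erg, another ETS gene known from endothelial cells, averaged 6.68 in NetKD, 6.64 in SapKD and 6.63 in Control arrays with no call. Psmg1, a proteasome assembly gene on the other side, rose by 0.22 in SapKD cells (adjusted p = 0.0092) and lay at 0.09 in NetKD cells (adjusted p = 0.28).

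**Figure D2:**
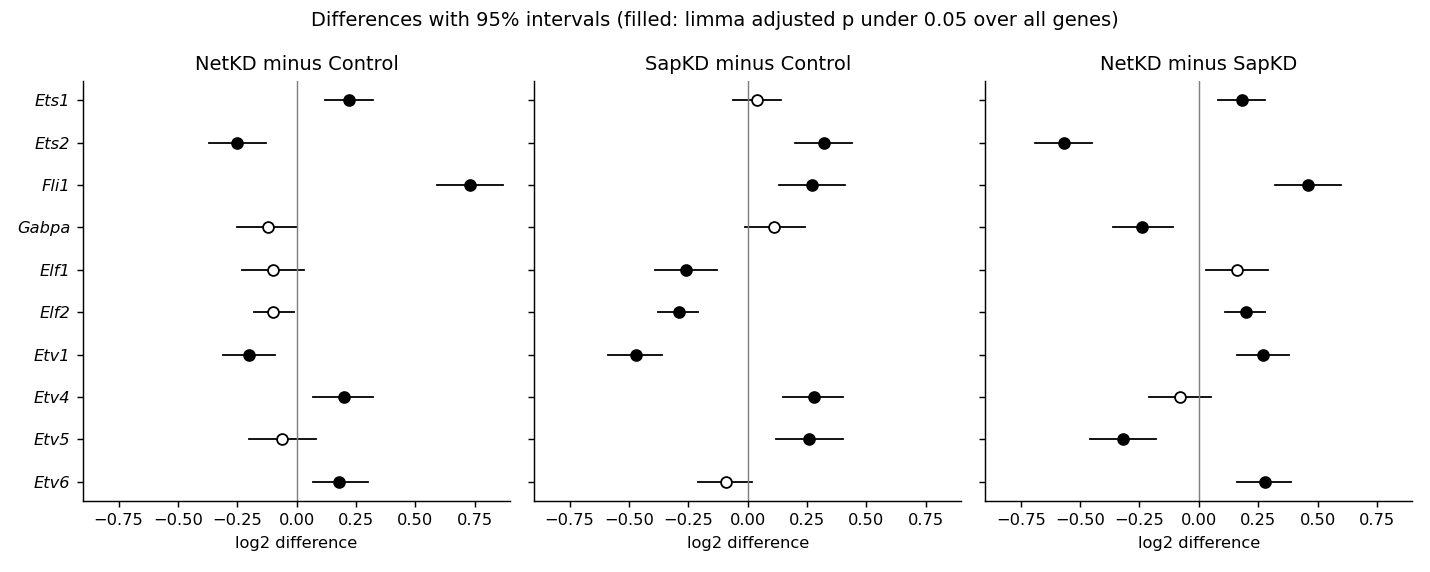
Log2 differences of the 10 ETS factor genes (points) with 95% intervals of the fit (lines) for NetKD minus Control, SapKD minus Control and NetKD minus SapKD, filled where limma's adjusted p over all genes was under 0.05. The largest differences are Fli1 at 0.73 in NetKD cells, Etv1 at -0.47 in SapKD cells and Ets2 at -0.57 between the knockdowns.

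The PEA3 group, whose members are induced by growth factor signalling and can replace each other in part, did not move as a unit. Etv1 stood at 9.74, 9.86 and 9.86 on the NetKD arrays, at 9.47, 9.57 and 9.59 on the SapKD arrays and at 10.00, 10.07 and 9.98 on the Control arrays. The 3 groups did not overlap, with Control highest and SapKD lowest. Etv1 fell by 0.47 in SapKD cells (SE 0.05, limma adjusted p = 3e-05), a 1.39-fold difference and the largest of the set in that comparison, and by 0.20 in NetKD cells (SE 0.05, limma adjusted p = 0.013). It was higher in NetKD than in SapKD cells by 0.27 (SE 0.05, limma adjusted p = 0.0018).

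These Etv1 values come from the brighter of its pair of probe sets, and the origin of that probe set is uncertain. Of the 20 probe sets with the nearest numbers, 18 name genes of chromosome 13 and 0 name genes of chromosome 12, where Etv1 lies. The other probe set, whose 20 nearest numbers all name chromosome 12 genes, stood at 9.31, 9.45 and 9.36 on the NetKD arrays, at 8.9, 9.0 and 9.09 on the SapKD arrays and at 9.43, 9.63 and 9.39 on the Control arrays. It gave a fall of the same size in SapKD cells (-0.49, SE 0.07, limma adjusted p = 0.00029), but in NetKD cells only -0.11 (SE 0.07, limma adjusted p = 0.34). The fall in NetKD cells was also lost with the mean of the probe sets (-0.16, adjusted p = 0.081) and without Control replicate 2 (-0.18, adjusted p = 0.056). Agmo, a lipid-metabolising monooxygenase gene beside Etv1, rose by 2.40 in NetKD and by 2.36 in SapKD cells (SE 0.11 each), and Scin, an actin-severing protein gene on the other side, had no call (-0.05 in NetKD and -0.10 in SapKD cells).

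Etv4, the gene of PEA3 itself, rose in both lines. It stood at 8.04, 8.03 and 8.03 on the NetKD arrays, at 8.07, 8.17 and 8.11 on the SapKD arrays and at 7.71, 7.87 and 7.94 on the Control arrays. Every knockdown array lay above every Control array. The rise was 0.28 in SapKD cells (SE 0.06, limma adjusted p = 0.0033) and 0.20 in NetKD cells (SE 0.06, limma adjusted p = 0.029). The second of these was lost without Control replicate 1 (0.13, adjusted p = 0.085), Control replicate 2 or any NetKD replicate (0.19 to 0.21, adjusted p = 0.053 to 0.074), with only the 6 arrays compared (adjusted p = 0.061) and with the median of the 50 nearest genes taken off (0.14, adjusted p = 0.1). Etv4 did not differ detectably between the knockdowns (NetKD minus SapKD -0.08, 95% interval -0.21 to 0.05). Dhx8, an RNA helicase gene beside Etv4, rose in NetKD cells as well, by 0.27 (SE 0.05, adjusted p = 0.0022), and Meox1 on the other side stood at 6.47 in NetKD, 6.46 in SapKD and 6.45 in Control arrays.

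Etv5 was higher in SapKD cells alone among the 3 groups. It stood at 9.65, 9.55 and 9.55 on the NetKD arrays, at 9.89, 9.94 and 9.88 on the SapKD arrays and at 9.51, 9.65 and 9.77 on the Control arrays. SapKD arrays were above all others, and NetKD and Control arrays overlapped. Etv5 rose by 0.26 in SapKD cells (SE 0.06, limma adjusted p = 0.0082), with a NetKD minus Control value of -0.06 (95% interval -0.20 to 0.08, and 0.01 without Control replicate 3) and a NetKD minus SapKD difference of -0.32 (SE 0.06, limma adjusted p = 0.0025). Its other probe set, whose 20 nearest numbers all name genes of chromosome 10 and none of chromosome 16, averaged 9.47 in NetKD, 9.81 in SapKD and 9.58 in Control arrays and kept the SapKD rise at 0.23 (SE 0.05, limma adjusted p = 0.0023). In SapKD cells the PEA3 group therefore held 1 gene that fell, Etv1, and 2 that rose, Etv4 and Etv5. The flanking genes Tra2b, a splicing factor gene, and Crygs, a crystallin gene, lay between -0.02 and 0.03 in both comparisons with Control. Of the 50 nearest measured genes, however, 17 rose and 7 fell in SapKD cells, where 15.8% of all genes rose and 13.9% fell. Among those 50, 10 rose further than Etv5.

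Elf1 and Elf2, factors of the ELF branch that act in lymphocytes and many other cells, fell in SapKD cells. Elf2 stood at 9.59, 9.58 and 9.56 on the NetKD arrays, at 9.38, 9.34 and 9.41 on the SapKD arrays and at 9.65, 9.64 and 9.71 on the Control arrays. It fell by 0.29 in SapKD cells (SE 0.04, limma adjusted p = 0.00016) and lay at -0.10 in NetKD cells (95% interval -0.18 to -0.01, adjusted p = 0.11), where its arrays did not overlap those of Control. The NetKD value passed after quantile normalization (-0.11, adjusted p = 0.043) and after cyclic loess (-0.11, adjusted p = 0.049).

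Elf1 stood at 9.42, 9.49 and 9.51 on the NetKD arrays, at 9.25, 9.28 and 9.41 on the SapKD arrays and at 9.47, 9.61 and 9.65 on the Control arrays. It fell by 0.26 in SapKD cells (SE 0.06, limma adjusted p = 0.0054), with a value of -0.10 in NetKD cells (95% interval -0.23 to 0.03). SapKD arrays were the lowest for both genes. Between the knockdowns Elf2 was higher in NetKD cells by 0.20 (limma adjusted p = 0.0028), and Elf1 lay at 0.16 (adjusted p = 0.068), a value that passed without SapKD replicate 3 (0.21, adjusted p = 0.03). Noct, the gene of the circadian protein nocturnin beside Elf2, fell by 0.26 in NetKD and by 0.85 in SapKD cells (SE 0.05 each), and the predicted gene 4930577N17Rik on the other side fell by 0.29 in SapKD cells. Beside Elf1, Sugt1, a cochaperone gene, rose by 0.20 in SapKD cells (adjusted p = 0.01), and Wbp4 lay at 0.07 (adjusted p = 0.4).

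Etv6, a repressor that polymerises through its pointed domain, rose in NetKD cells. It stood at 10.45, 10.55 and 10.55 on the NetKD arrays, at 10.20, 10.24 and 10.29 on the SapKD arrays and at 10.24, 10.38 and 10.39 on the Control arrays. NetKD arrays were the highest, and SapKD arrays overlapped the Control range from below. The rise in NetKD cells was 0.18 (SE 0.05, limma adjusted p = 0.026), and it was lost without Control replicate 1 (0.13, adjusted p = 0.098), NetKD replicate 2 (0.17, adjusted p = 0.086) or NetKD replicate 3 (0.16, adjusted p = 0.093). The SapKD value was -0.09 (95% interval -0.21 to 0.02, adjusted p = 0.23). The NetKD minus SapKD difference of 0.28 passed (SE 0.05, limma adjusted p = 0.002). Its neighbours Kap and Bcl2l14 lay at 0.05 each in NetKD cells, with no call.

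Gabpa, the DNA-binding subunit of GA-binding protein and an activator of genes of mitochondria and the cell cycle, was called in neither comparison with Control. It stood at 10.05, 10.18 and 10.12 on the NetKD arrays, at 10.31, 10.28 and 10.47 on the SapKD arrays and at 10.20, 10.27 and 10.27 on the Control arrays. The 3 groups did not overlap, NetKD being lowest and SapKD highest. The differences from Control were -0.12 in NetKD (95% interval -0.25 to 0.00, adjusted p = 0.16) and 0.11 in SapKD cells (95% interval -0.01 to 0.24, adjusted p = 0.18), while the NetKD minus SapKD difference of -0.24 passed (SE 0.06, limma adjusted p = 0.0087). The NetKD value passed after quantile normalization (-0.14, adjusted p = 0.049). The genes beside Gabpa, the ATP synthase gene Atp5j and the amyloid precursor gene App, lay at 0.07 and 0.11 in NetKD and at 0.13 and 0.08 in SapKD cells, with no call.

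Between the knockdowns 5 members were higher in NetKD cells (Fli1, Ets1, Elf2, Etv1 and Etv6) and 3 lower (Ets2, Gabpa and Etv5). In that comparison 14.2% of all genes were called higher and 13.3% lower (27.5% in all), and 22.6% and 21.9% of the brighter genes (44.4% in all). The arrays of the knockdowns did not overlap for any of the 10 members, against 37.4% of all genes and 57.5% of the brighter ones. Ets2, Gabpa and Etv5, the 3 members called lower in NetKD than in SapKD cells, all lie on chromosome 16. On that chromosome 7.72% of 648 genes were called higher and 20.1% lower in NetKD than in SapKD cells, and the median difference over its genes was -0.01. The 50 nearest genes differed between the 3 members. Around Ets2 5 were higher and 5 lower, around Gabpa 3 and 6, and around Etv5 7 and 17. Those further below 0 than the member numbered 0 around Ets2, 2 around Gabpa and 4 around Etv5. A shared cause was not tested.

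**Figure D3:**
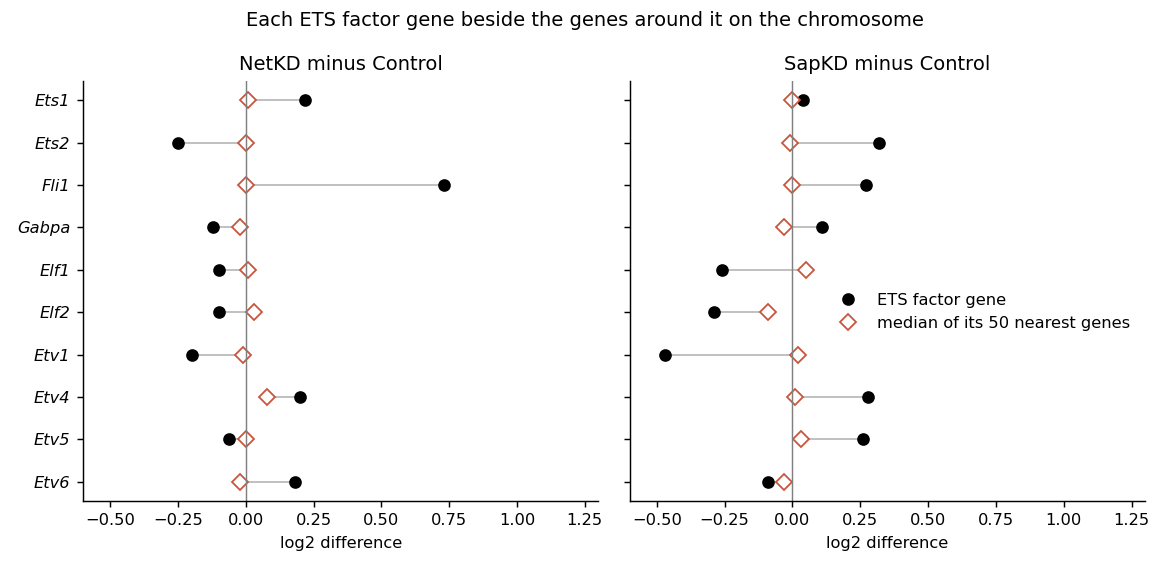
Log2 difference of each ETS factor gene (filled points) and the median log2 difference of the 50 measured genes nearest to it on its chromosome (open diamonds), for NetKD minus Control and SapKD minus Control. The diamonds lie between -0.09 and 0.08, farthest from 0 for Elf2 in SapKD cells and for Etv4 in NetKD cells.

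The genes around the members had small median differences, though some stretches held many calls. The median difference of the 50 nearest measured genes was between -0.02 and 0.08 in NetKD cells and between -0.09 and 0.05 in SapKD cells. None of the 50 genes around Fli1 rose further than Fli1 in NetKD cells, and none around Etv1 fell further than Etv1 in SapKD cells. Around Ets2, 1 of 50 genes fell further in NetKD cells and 3 of 50 rose further in SapKD cells. Elf2 lay in a stretch where 19 of 50 genes fell and 7 rose in SapKD cells and 13 fell further than Elf2, and on its chromosome 3 24.7% of 943 genes fell in that line. Etv4 lay in a stretch where 17 of 50 genes rose and 2 fell in NetKD cells, and on its chromosome 11 27.4% of 1563 genes rose in that line and 3.26% fell. Around Etv5, 17 of 50 genes rose and 7 fell in SapKD cells, and 10 rose further than Etv5. Around Elf1, which fell in SapKD cells, 18 of 50 genes rose there and 4 fell. With the median of the 50 nearest genes taken off, Elf2 still fell in SapKD cells (-0.20), whereas its NetKD minus SapKD difference dropped to 0.10 and lost its call (adjusted p = 0.12). What moved those stretches was not tested.

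The rest of the ETS family was mostly called nowhere. Elf3, Elf5, Ehf, Spib, Spic, Erg, Etv2 and Spi1 averaged below the median of all probe sets, so their lack of calls is no contrast with the members. Of all genes 23.6% were called in NetKD and 29.7% in SapKD cells, and 38.9% and 47.5% of the brighter ones. Of 16 further ETS genes 15 were measured, and beside Elk3 and Elk4 no gene of that list passed in NetKD cells. In SapKD cells Elk3 fell by 0.12 (adjusted p = 0.023) and Elf4, of the ELF branch, fell by 0.25 (SE 0.05, limma adjusted p = 0.0015). Elf4 averaged 10.61 in NetKD, 10.34 in SapKD and 10.59 in Control arrays, so Elf1, Elf2 and Elf4 were all lower in SapKD than in Control cells. Etv3 and Erf, a pair of related repressors, had no call, at 0.00 and 0.01 in NetKD and -0.13 and -0.10 in SapKD cells. Erg, Etv2 and Spi1, factors of endothelial and blood cells, stayed between -0.02 and 0.06 in both comparisons. The median difference of the list was 0.00 in NetKD and -0.08 in SapKD cells.

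**Figure D4:**
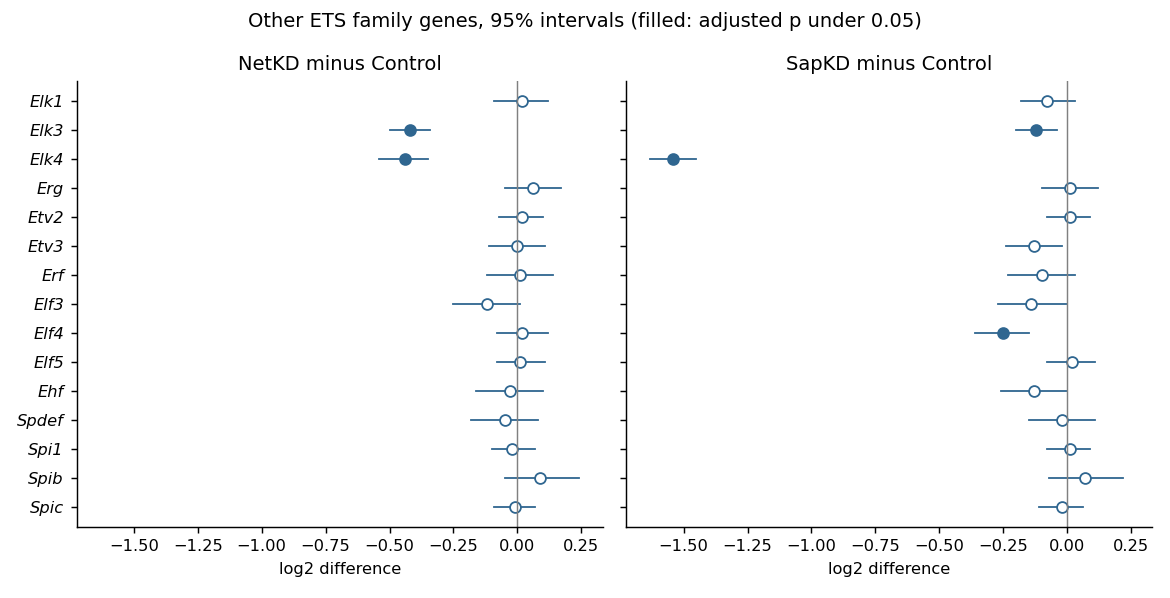
Log2 differences of 15 further ETS family genes (points) with 95% intervals (lines) for NetKD minus Control and SapKD minus Control, filled where limma's adjusted p over all genes was under 0.05. Elk3 and Elk4 are the only filled points in NetKD cells, and Elk4, Elf4 and Elk3 those in SapKD cells.

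Genes whose pattern over the arrays was closest to a member were found by the root mean square difference over the 9 arrays, each gene centred on its Control mean. For Fli1 they were Adamtsl4 (0.07), Slc27a1 (0.08) and Tmem192 (0.08), with differences of 0.63 to 0.78 in NetKD and 0.21 to 0.30 in SapKD cells. For Etv1 they were Tctn1, Ttll1 and Gli3 (0.04 each), with differences of -0.25 to -0.20 in NetKD and -0.49 to -0.46 in SapKD cells. That match used the brighter Etv1 probe set, of uncertain origin, whose call in NetKD cells the other probe set did not repeat. The 9 arrays fall into 3 groups of 3, and the likeness is a description.

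Partners of the members changed in part. Of 12 listed partner and corepressor genes 9 were measured, with 2 higher and 3 lower in NetKD and 3 lower in SapKD cells. Calls in either direction took in 23.6% of all genes and 38.9% of the brighter ones in NetKD cells, and 29.7% and 47.5% in SapKD cells. In NetKD cells Runx1, a runt factor that binds DNA together with Ets1, was up by 0.27 (SE 0.05, limma adjusted p = 0.0016) and the deacetylase gene Hdac3 by 0.20, while the coactivator genes Crebbp and Ep300 fell by 0.30 and 0.26. Gabpb1, a beta subunit that gives Gabpa its activating domain, fell by 0.24 in NetKD and by 0.23 in SapKD cells (SE 0.06 each, adjusted p = 0.0097 and 0.012). The second beta subunit gene Gabpb2 fell by 0.35 in SapKD cells (SE 0.07, adjusted p = 0.002) and lay at 0.02 in NetKD cells, and Srf, the partner of the ternary complex factors, fell by 0.19 in SapKD cells. The list's median difference was 0.01 in NetKD and -0.05 in SapKD cells.

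Of 10 measured genes that control the PEA3 group, 6 fell and none rose in SapKD cells (median -0.21), where 13.9% of all genes and 21.7% of the brighter ones fell. The other 4 had no call there, with Det1 at 0.12 and Cul4a at 0.11. In NetKD cells 2 rose and 2 fell (median -0.01). Trib2, a pseudokinase gene of the Tribbles family that guides the ubiquitin ligase COP1, averaged 10.44 in NetKD, 9.32 in SapKD and 10.30 in Control arrays, and fell by 0.98 in SapKD cells (SE 0.05, limma adjusted p = 5.8e-08). Its relative Trib1 fell by 0.34 in SapKD cells, and both rose by 0.14 in NetKD cells. Atxn1, a partner of the repressor Capicua that acts on PEA3 genes, fell in both lines, by 0.55 in NetKD and by 0.78 in SapKD cells (SE 0.07 each), and Usp9x, a deubiquitinase gene, fell by 0.20 in NetKD cells. The gene of Capicua itself, Cic, had no call in either line.

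**Figure D5:**
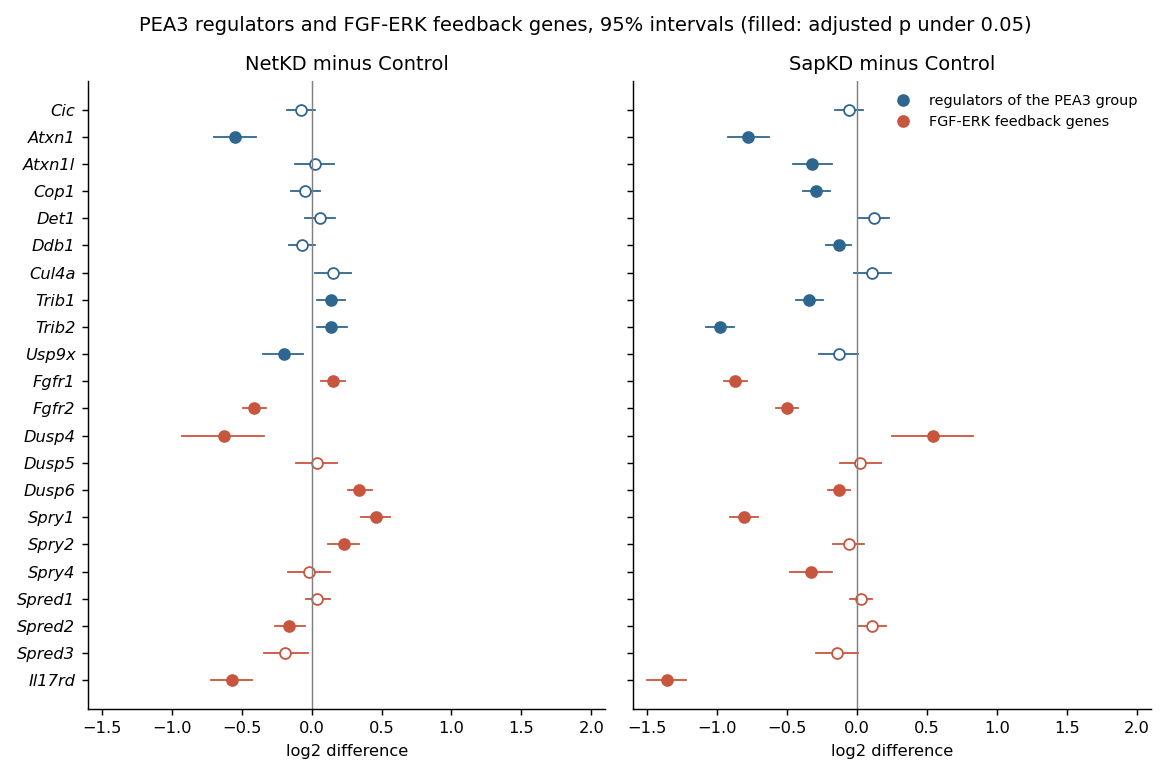
Log2 differences (points) with 95% intervals (lines) of 10 genes that regulate the PEA3 group and 12 FGF-ERK feedback genes, for NetKD minus Control and SapKD minus Control, filled where limma's adjusted p over all genes was under 0.05. Trib2 and Il17rd lie far to the left in SapKD cells at -0.98 and -1.36, while Spry1 is at 0.46 in NetKD and -0.81 in SapKD cells.

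The list of FGF-ERK feedback genes, which are often expressed where Etv4 and Etv5 are, also holds the receptor genes Fgfr1 and Fgfr2. Of its 12 genes, 4 were higher and 4 lower in NetKD cells (median 0.01). In SapKD cells 1 was higher and 6 were lower (median -0.14). In NetKD cells 13.4% of all genes rose and 10.2% fell, and 22% and 16.9% of the brighter ones. The SapKD shares were 15.8% and 13.9% of all genes, and 25.8% and 21.7% of the brighter ones. Calls in either direction took in 23.6% and 29.7% of all genes, and 38.9% and 47.5% of the brighter ones. Fgfr1, the main FGF receptor gene of fibroblasts, averaged 12.97 in NetKD, 11.94 in SapKD and 12.81 in Control arrays and fell by 0.87 in SapKD cells (SE 0.04, limma adjusted p = 2.6e-08). Il17rd, an FGF receptor antagonist gene, fell by 0.57 in NetKD and by 1.36 in SapKD cells (SE 0.07 each). The feedback inhibitor gene Spry1 rose by 0.46 in NetKD and fell by 0.81 in SapKD cells (SE 0.05 each), and Dusp6, an ERK phosphatase gene, rose by 0.34 in NetKD cells. Fgfr2 fell by 0.41 in NetKD and by 0.50 in SapKD cells. Etv4 and Etv5 stood higher in SapKD cells, where most genes of this list that passed were lower, the receptor genes Fgfr1 and Fgfr2 among them. Dusp4, another ERK phosphatase gene, was the only gene of the list that rose there, by 0.54. A link between these changes was not tested.

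In the Ras-ERK cascade, which phosphorylates Ets1 and Ets2, 11 of 17 listed genes were measured. In NetKD cells 4 fell and none rose, namely the phosphatase gene Ptpn11 (by 0.37), the exchange factor gene Sos1 (by 0.35), the kinase gene Rps6ka3 (by 0.30) and the adaptor gene Shc1 (by 0.12). In SapKD cells Shc1 fell by 0.54 (SE 0.04, limma adjusted p = 1.5e-06), Ksr1, Ptpn11 and Braf fell by 0.18 to 0.21, and the MEK1 gene Map2k1 rose by 0.40. The median difference of the list was -0.12 in NetKD and 0.03 in SapKD cells. Calls in either direction, 4 of 11 in NetKD and 5 of 11 in SapKD cells, were a smaller share than the 38.9% and 47.5% of brighter genes. They were a larger share than the 23.6% and 29.7% of all genes. Falls alone took in 10.2% of all genes and 16.9% of the brighter ones in NetKD cells. The SapKD shares of falls were 13.9% and 21.7%. The 4 of 11 that fell in each line were a larger share than these. With 11 genes the counts are a description.

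Genes described as targets of the members were read as 2 lists. Of 12 measured targets of Ets1 and Ets2, 4 rose and none fell in NetKD cells, namely the gelatinase gene Mmp9 (0.60, SE 0.05), the matrix gene Tnc (0.59, SE 0.07), the survival gene Bcl2l1 (0.47, SE 0.04) and the urokinase gene Plau (0.34, SE 0.05). In that comparison 23.6% of all genes were called and 13.4% rose, and 38.9% and 22% of the brighter ones. Mmp3, Mmp13, Cdkn2a and Csf1r averaged below the median of all probe sets, so neither share matches the list. In SapKD cells 3 rose and 3 fell, where 29.7% of all genes and 47.5% of the brighter ones were called. Tnc was up by 0.99, Bcl2l1 by 0.41 and Plau by 0.14. Mmp9 fell by 0.64, its inhibitor gene Timp1 by 0.32 and the integrin gene Itgb3 by 0.29. Mmp9 averaged 8.82 in NetKD, 7.58 in SapKD and 8.22 in Control arrays. Of 15 measured targets of GA-binding protein, 8 rose and 1, Yap1, fell by 0.18 in NetKD cells (median 0.16) and 8 rose and none fell in SapKD cells (median 0.20), while the medians over all genes were -0.00 and -0.02. The cytochrome oxidase gene Cox5a rose by 0.43 in NetKD and by 0.68 in SapKD cells (SE 0.05 each), Skp2, a cell cycle ubiquitin ligase gene, by 0.39 in NetKD and by 0.25 in SapKD cells, and Cox7a2 by 0.24 in SapKD cells. Higher calls took in 13.4% of all genes and 22% of the brighter ones in NetKD cells, and 15.8% and 25.8% in SapKD cells. Cox5a and Skp2 passed in both lines, Cox7a2 lay at 0.07 in NetKD cells (adjusted p = 0.3), and Gabpa itself passed in neither.

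Markers of the cells in which Fli1 is best known were measured beside it. Calls took in 23.6% of all genes in NetKD and 29.7% in SapKD cells, and 38.9% and 47.5% of the brighter ones. The called shares of the endothelial, haematopoietic and epithelial lists were below those of all genes. Those of the fibroblast list were close to those of the brighter genes. Of 15 endothelial markers, 3 rose and none fell in NetKD cells: Tek, which encodes a receptor for angiopoietins, was up by 1.84 (SE 0.05, limma adjusted p = 2.7e-09), Flt1 by 0.36 and Emcn by 0.27. In SapKD cells Emcn rose by 0.89, the cadherin gene Cdh5 by 0.84 and Flt1 by 0.25, and Tek fell by 0.30. The summed linear level of the list was 2780 to 2870 on the NetKD arrays, 2510 to 2560 on the SapKD arrays and 2300 to 2350 on the Control arrays, a sum to which brighter probe sets add more. The list medians of all groups overlapped, and the called markers did not share 1 order. Tek was highest in NetKD and lowest in SapKD arrays, and Emcn and Cdh5 were highest in SapKD arrays. Pecam1, Kdr, Tie1 and Erg had no call in either line. Of 13 haematopoietic markers, 2 rose in NetKD cells, Cd14 (0.41) and Cd68 (0.23), and in SapKD cells Cd14 rose by 0.21 and Itga2b and Cd68 fell by 0.27 and 0.23. Their summed level was 1820 to 1930 on the NetKD, 1660 to 1730 on the SapKD and 1780 to 1810 on the Control arrays. Of 10 epithelial markers Cdh1 alone passed in NetKD cells, rising by 0.38, and no other list member passed in either line. Of 10 fibroblast markers 4 fell in NetKD cells (median -0.10) and 5 in SapKD cells (median -0.11). Pdgfra, a growth factor receptor gene, fell most on that list, averaging 12.43 in NetKD, 10.95 in SapKD and 12.69 in Control arrays (differences of -0.26 in NetKD and -1.74 in SapKD cells), and the matrix gene Dcn fell by 0.24 in NetKD and by 0.66 in SapKD cells. The part of these markers in the Fli1 difference was not tested, and in such pools of cells more cells of a kind and more RNA per cell cannot be told apart.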

How the data were processed

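The deposited table holds 1 log2 level for each of 28815 probe sets on each of 9 arrays (3.24 to 14.47), which the authors computed with RMA. The submitters' processing notes name Affymetrix Expression Console, with settings not given in the sources used here. RMA removes shifts shared by most genes and compresses folds of dim genes. Precision is limited by the number of arrays.

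Gene names came from the platform's annotation and Entrez IDs of a RefSeq table (GRCm38.p6), 21780 with 1 symbol, 1605 with several and 5430 with none. The brightest of the first kind stood for each of 19935 genes. The array's build was not given, so that table served for names and gene order only. The design's comparison of member proteins was not made.

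Groups were compared with limma 3.58.1 in R 4.3.3 (lmFit, eBayes) in 1 fit over 9 arrays with a mean per group, 6 residual and 4.7 prior degrees of freedom, and no replicate block, because arrays with the same number did not deviate together in every pair (correlations of -0.11 to 0.36). SE is the standard error of the fit. On simulated data with 19935 genes, calls in the NetKD comparison covered 6% of genes changed 1.1-fold, 76% of those changed 1.2-fold and 98% of those changed 1.5-fold, and 6 genes were called wrongly. Only 50 genes were raised at each fold, far fewer than were called in the real comparison. The shares therefore check the fit and do not give its power in these data.

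The members, gene lists, settings and naming rule were chosen with earlier results of these data known. Named were all members, called genes of the ETS family, up to 3 called genes per list and comparison with the smallest adjusted p, the nearest measured genes of members, and the 3 genes closest in pattern to Fli1 and Etv1. Other genes of short counts and the endothelial and blood genes without a call were named after their values were seen. Alternatives were the replicate block, variance trend, arrays compared, 3 normalizations, a filter on dim genes, the mean of probe sets, array weights, neighbouring genes, arrays left out, an adjusted p under 0.01 and a 1.2-fold minimum with limma's treat. The other probe set of Etv1 and Etv5 was added after seeing the data.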

Additional observations from a re-analysis of the deposited data

Results flagged for a closer look

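Ets2, Gabpa, Etv5 and Etv6 had mean differences from Control of opposite sign in the knockdowns and differed between them by the direct limma test, at NetKD minus SapKD differences of -0.57, -0.24, -0.32 and 0.28 (adjusted p = 1.2e-05, 0.0087, 0.0025 and 0.002). Only Ets2 also passed against Control in both lines, at -0.25 in NetKD and 0.32 in SapKD cells. For Ets2 and Gabpa every NetKD array lay below and every SapKD array above the 3 Control arrays. Etv5 and Etv6 each passed against Control in 1 line, Etv5 in SapKD cells (0.26) and Etv6 in NetKD cells (0.18). The NetKD arrays of Etv5 (9.55 to 9.65) lay inside the Control range (9.51 to 9.77), and its NetKD minus Control value of -0.06 changed sign, to 0.01, without Control replicate 3, so its side of Control in NetKD cells is not settled. Between the knockdowns 27.5% of all genes were called. The share of all genes that also had opposite signs against Control was not counted, so the flag does not set these members apart.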

How the results depend on the processing

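No difference of a member that passed turned its direction under the alternatives run. The calls of Fli1 in NetKD, Etv1 in SapKD and Ets2 between the knockdowns held under all of them, with ranges of 0.67 to 0.79, -0.50 to -0.44 and -0.61 to -0.53. Members called without 1 array in turn numbered 4 to 6 in NetKD and 7 in SapKD cells, and 7 to 9 between the knockdowns. With the replicate block the counts were 6, 7 and 9, and the block added only Elf1 between the knockdowns (0.16, adjusted p = 0.017). The numbers were not taken as a pairing, since correlations of same-numbered arrays went down to -0.11. In 10 of 18 cases the closest array of another group carried the same number, where 1 in 3 would do so without pairing, which is a hint of pairing from the data and not from the design.

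Without 1 array in turn the NetKD minus Control values ran from 0.13 to 0.25 for Etv4, 0.13 to 0.22 for Etv6 and -0.22 to -0.16 for Etv1. The NetKD minus SapKD values ran from 0.15 to 0.21 for Ets1 and 0.13 to 0.21 for Elf1. In NetKD cells the call was lost for Etv4 (0.20) and Etv6 (0.18) with only the 6 arrays compared, for Etv6 (0.18) with arrays centred on their medians, for Etv4 (0.14) with neighbouring genes taken off, and for Etv1 with the mean of its probe sets (-0.16) and with its other probe set (-0.11). Between the knockdowns it was lost for Ets1 (0.15) with arrays centred on their medians and for Elf2 (0.10) with neighbouring genes taken off. Calls were gained for Gabpa (-0.14) and Elf2 (-0.11) in NetKD and Etv6 (-0.12) in SapKD cells after quantile normalization, for Elf2 (-0.11) after cyclic loess and for Etv6 (-0.12) in SapKD cells with array weights. Elf1 gained its call between the knockdowns after quantile normalization or cyclic loess (0.16 each), with dim genes left out (0.16), with array weights (0.21) and with neighbouring genes taken off (0.20). The cause was not tested.

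At an adjusted p under 0.01, 3 members were called in NetKD cells, without Etv1 (-0.20), Etv4 (0.20) and Etv6 (0.18), and Ets1 (0.18) was lost between the knockdowns. Against a minimum of 1.2-fold, 758 genes and 1 member, Fli1, were called in NetKD cells, 1478 genes and 1 member, Etv1, in SapKD cells, and 1419 genes and 1 member, Ets2, between the knockdowns, where 4714, 5921 and 5480 genes were called without it. Lost there were Ets1 (0.22), Ets2 (-0.25), Etv1 (-0.20), Etv4 (0.20) and Etv6 (0.18) in NetKD cells, Ets2 (0.32), Fli1 (0.27), Elf1 (-0.26), Elf2 (-0.29), Etv4 (0.28) and Etv5 (0.26) in SapKD cells, and Ets1 (0.18), Fli1 (0.46), Gabpa (-0.24), Elf2 (0.20), Etv1 (0.27), Etv5 (-0.32) and Etv6 (0.28) between the knockdowns.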
